A study of Mus musculus with 5 samples.

Results

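The non-collagen glycoproteins and elastic fiber proteins of the uterine matrix were examined in 10 genes, chosen by name from the 28666 genes of the deposited count table, in which each had 1 row. They were Fn1 (fibronectin), Tnc and Tnxb (tenascins C and X), Sparc, Spp1 (osteopontin), Postn (periostin), Thbs1 and Thbs2 (thrombospondins 1 and 2), Eln (elastin, which makes up the core of the elastic fiber) and Fbn1 (fibrillin 1, which builds the microfibrils around it). All 10 had enough counts to be tested. RNA came from whole uteri of ICR mice, an outbred stock, aged 6 to 8 weeks and made pseudopregnant by mating with vasectomized C57BL/6 males, whose ejaculate carries seminal plasma (SP) without sperm. Males of the young-SP group were 12 to 14 weeks old at vasectomy (3 libraries, replicates 1, 2 and 4). Those of the aged-SP group were 12 to 18 months old at vasectomy (2 libraries, replicates 1 and 4). The study's methods place collection at 3.0 days post coitum, before any embryo transfer, and the series description at 3.5 days after caging. Neither source says how many females stand behind a library, so the p-values measure the spread between these libraries. A further young-SP library that the authors excluded was not analysed here.

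Fibronectin, tenascins and the matricellular proteins sit between the collagen fibers and the cell surface. Fibronectin is laid down as a fibril that cells bind through integrins, and it serves as a scaffold for other matrix proteins. Matricellular proteins such as SPARC, osteopontin, periostin and the thrombospondins carry little of the mechanical load and act on adhesion, growth factor activity and collagen assembly. Elastin on a fibrillin scaffold lets a tissue recoil after stretch. The uterine stroma remodels this matrix before and during implantation, and osteopontin is known as a secreted ligand of integrins at the uterine epithelium.

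Libraries held between 15071914 and 16728601 counts assigned to genes, and 17013 genes were tested with edgeR's quasi-likelihood test. Calls took the thresholds of the study, a Benjamini-Hochberg adjusted p under 0.05 with a log2 fold change beyond 1 in either direction. A positive fold change means a higher level after mating with aged males. The spread between libraries of a group beyond counting error was 25.1% of a typical gene's mean. Esr1, Pgr, Hoxa10, Hoxa11, Hoxd10 and Hand2, which mark the uterus, summed to between 1315 and 1404 CPM (counts-per-million after TMM scaling) in each library. Young-SP replicate 1 stood apart from the other young-SP libraries, and without it edgeR called 578 genes in place of 25. In whole tissue, fewer cells of a type and less RNA per cell cannot be told apart.

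**Figure D1:**
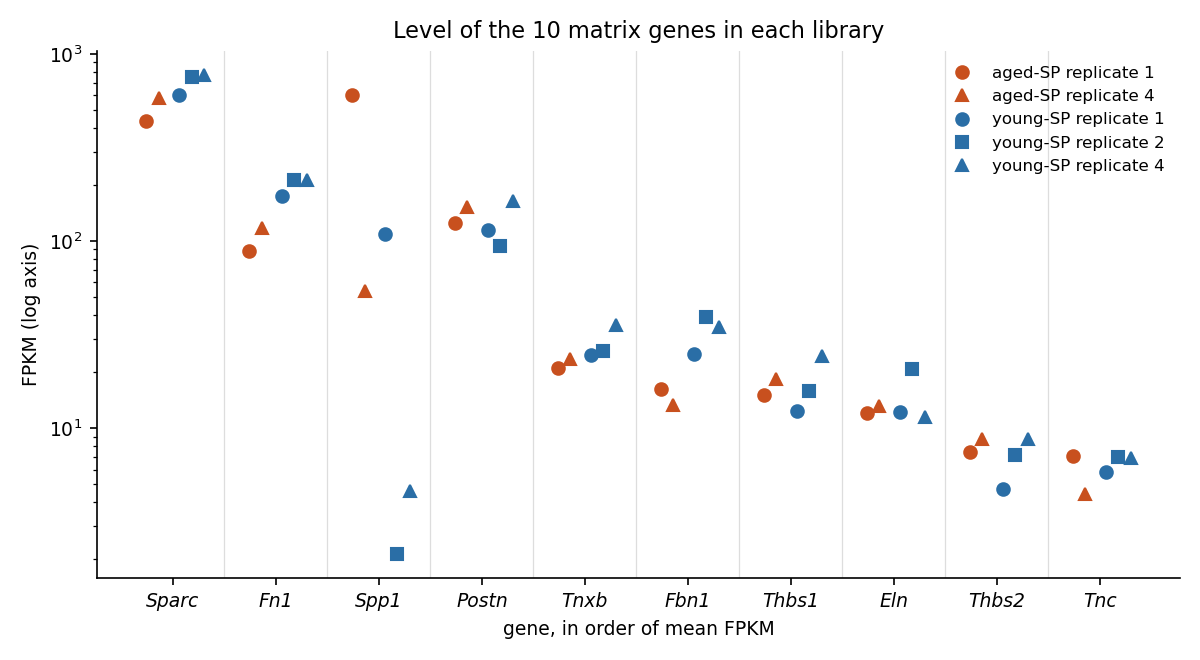
FPKM of each of the 10 genes on a log axis, with 1 point per library (orange, aged-SP; blue, young-SP; the shape gives the replicate number). Both aged-SP points of Fn1, Fbn1, Sparc and Tnxb lie below the 3 young-SP points, while Spp1 runs from 2.12 to 599 FPKM.

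Levels of different genes were compared per length, as the FPKM that the authors deposited. Sparc was the most abundant of the 10 genes, at 436 and 582 FPKM in the aged-SP libraries and 603, 748 and 773 FPKM in the young-SP libraries, a mean above that of 99.8% of all listed genes. Fn1 followed at a mean of 160.5 FPKM, and Postn was at 129.9 FPKM. Spp1 had a mean of 153.7 FPKM that stands for none of the libraries, since it was first among the 10 genes in aged-SP replicate 1, after Sparc, Postn and Fn1 in aged-SP replicate 4 and young-SP replicate 1, and last in young-SP replicates 2 and 4. Tnxb (26.002 FPKM) and Fbn1 (25.623 FPKM) followed and exchanged places between libraries, and in aged-SP replicate 4 Fbn1 (13.2 FPKM) was below Thbs1 (18.2 FPKM) and close to Eln (13.05 FPKM). Thbs1 was at 17.1 FPKM and Eln at 13.9 FPKM, and their ranges overlapped. Thbs2 (7.34 FPKM) and Tnc (6.25 FPKM) were the least abundant, with overlapping ranges. Without Spp1, 9 of the 10 genes differed between their highest and lowest library by 1.61-fold (Tnc) to 2.97-fold (Fbn1), and Spp1 differed by 282-fold.

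Between the groups, 0 of the 10 genes were called by edgeR, against 0.147% of all tested genes. At an unadjusted p under 0.05 there were 3 of the 10 genes, Fn1, Fbn1 and Sparc, against 19.0% of all tested genes. Each of the 3 had its lower level after mating with aged males, as did 9.36% of all tested genes at this p. With DESeq2's Wald test, the tool of the study, 1 of the 10 genes was called (Fbn1), against 3.60% of the genes in either direction and 1.92% in the direction of Fbn1. At DESeq2's adjusted p under 0.05 alone there were 2 (Fn1 and Fbn1), against 7.58% of the genes and 3.89% in this direction, and at edgeR's there were 0, against 0.153%. Without a filter on low counts edgeR called 1 (Fbn1), against 0.708%. With limma-voom 0 of the 10 were called (background 0.159%), as with DESeq2 size factors (0.106%), library size alone (0.129%), at least 10 counts in every library (0.125%), the replicate block (0.0118%), and with aged-SP replicate 1 (0.00568%) or 4 (0.278%), or young-SP replicate 2 (0.0180%) or 4 (0.0119%), left out. With the replicate block, 5 of the 10 had an unadjusted p under 0.05, against 14.8% of all tested genes in that fit. That fit takes equal replicate numbers as pairs, which no source states. Young-SP replicate 2 has no partner and does not enter its group difference. The median log2 fold change of the 10 genes was -0.19, and that of all tested genes was 0.0072. The CPM ranges of aged-SP and young-SP libraries were separate for 4 of the 10 genes, each lower in both aged-SP libraries, against 38.8% of all tested genes in either direction and 19.3% in this direction. The share separated in either direction was thus near the background.

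**Figure D2:**
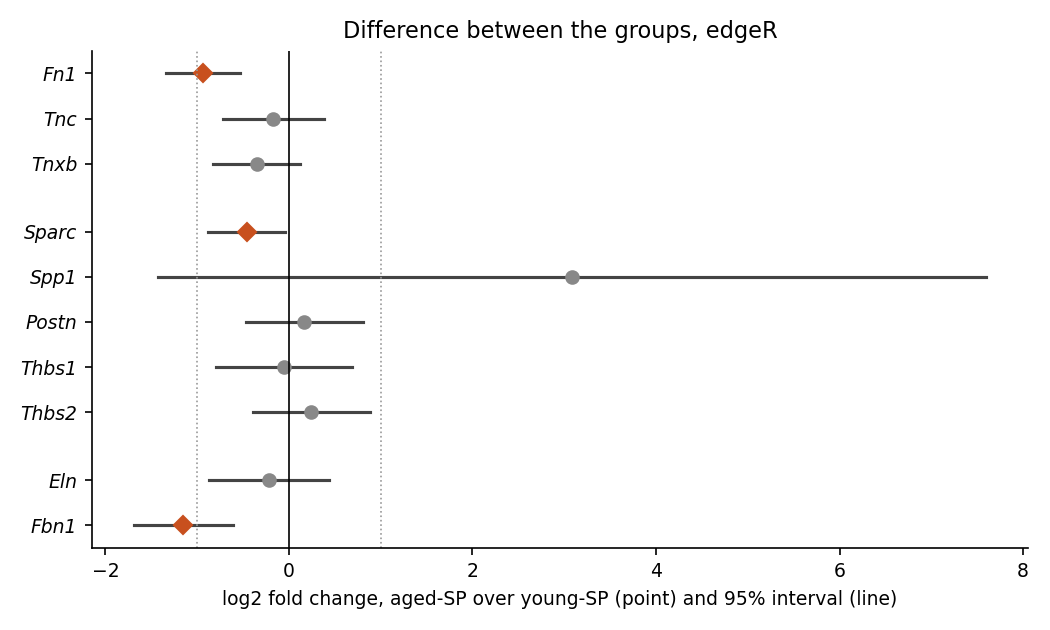
Log2 fold change of each gene (point, with orange diamonds at an unadjusted p under 0.05 and grey circles for the others) with its 95% interval (line) from edgeR, by role. Dotted lines mark a log2 fold change of 1 in either direction. The intervals of Fn1, Sparc and Fbn1 lie below 0, and that of Spp1 runs from -1.43 to 7.59.

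Fibronectin transcripts had a lower level in both aged-SP libraries. Fn1 (chromosome 1, 71585520 to 71653200, GRCm38) was at 1049 and 1372 CPM in aged-SP replicates 1 and 4, and at 2036, 2423 and 2489.6 CPM in young-SP replicates 1, 2 and 4. Every aged-SP value lay under every young-SP value. The aged-SP mean of 1211 ± 228 CPM (SD, n = 2) was 52.3% of the young-SP mean of 2316 ± 245 CPM (SD, n = 3). The log2 fold change was -0.94 (standard error 0.16, 95% interval -1.34 to -0.53), with an adjusted p of 0.0829 in edgeR and 2.29e-05 in DESeq2. The difference exceeded the spread between libraries gene by gene (unadjusted p = 0.0015 in edgeR's fit across all genes), but it did not pass the adjustment. Without young-SP replicate 1, edgeR called Fn1 (log2 fold change -1.03, adjusted p = 0.0359). With young-SP replicate 2 or 4 left out in its place, the edgeR adjusted p of Fn1 was 0.241 and 0.234. Without aged-SP replicate 1 the log2 fold change of Fn1 was -0.76.

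Of the tenascins, Tnxb (chromosome 17, 34670535 to 34719815), whose product links collagen fibrils, was at 258 and 287 CPM in the aged-SP libraries and at 303, 307 and 434 CPM in the young-SP libraries. The groups did not overlap, but the gap between them was small beside the range within the young-SP group (log2 fold change -0.35, standard error 0.19, edgeR adjusted p = 0.376). Of the 50-base stretches of Tnxb transcripts, 6.41% also occur in other genes, with the most in Tnxa, its partial copy, so that its count is less certain. Tnc (chromosome 4, 63959785 to 64047015), a tenascin of remodeling tissue, was at 55.9 and 34.4 CPM in aged-SP replicates 1 and 4. Its young-SP values of 45.5, 53.2 and 54.1 CPM lay between these, so that the groups overlapped. The log2 fold change of Tnc was -0.17 (95% interval -0.72 to 0.38), and it was 0.14 without aged-SP replicate 4.

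The elastic fiber genes differed from each other. Fbn1 (chromosome 2, 125300594 to 125507993) had the largest difference among the 10 genes after Spp1. It was at 198 and 161 CPM in aged-SP replicates 1 and 4, and at 305, 467 and 421 CPM in young-SP replicates 1, 2 and 4. The groups did not overlap, and the aged-SP mean of 179 ± 26.3 CPM (SD, n = 2) was 45.1% of the young-SP mean of 398 ± 83.2 CPM (SD, n = 3). The log2 fold change was -1.15 (standard error 0.21, 95% interval -1.69 to -0.61), with an adjusted p of 0.0905 in edgeR and 5.14e-05 in DESeq2. Without young-SP replicate 1, edgeR called Fbn1 (log2 fold change -1.32, adjusted p = 0.0217), as it did Fn1. In that comparison 2 of the 10 genes were called, against 3.45% of the tested genes. With young-SP replicate 2 or 4 left out in its place, the edgeR adjusted p of Fbn1 was 0.239 and 0.247. Exons of the antisense gene Gm9913 cover 20.1% of the exon bases of Fbn1, and without strand the reads there cannot be told apart. Gm9913 itself had between 0 and 3 counts per library. How reads on shared bases were assigned is not given, so this low count does not measure its part there.

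Eln (chromosome 5, 134702593 to 134747323) was at 98.7 and 105.9 CPM in the aged-SP libraries. In the young-SP libraries it was at 99.0 CPM in replicate 1, 163 CPM in replicate 2 and 93.7 CPM in replicate 4. Young-SP replicate 2 stood above the rest, and the groups overlapped (log2 fold change -0.21, 95% interval -0.87 to 0.44). Without that library the log2 fold change of Eln was 0.08. The ratio of Fbn1 to Eln, which needs no scaling between libraries, was 1.34 and 1.01 on the FPKM scale in the aged-SP libraries and 2.06, 1.91 and 3.00 in the young-SP libraries. The microfibril gene was thus lower relative to the elastin gene in both aged-SP libraries.

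Among the matricellular genes, Sparc (chromosome 11, 55394500 to 55423183), whose product binds collagen and is needed for normal collagen fibrils, was at 1671 and 2209 CPM in aged-SP replicates 1 and 4. In young-SP replicates 1, 2 and 4 it was at 2300.4, 2774 and 2945 CPM. Both aged-SP values lay below the others, although aged-SP replicate 4 and young-SP replicate 1 were close. The log2 fold change was -0.46 (standard error 0.17, 95% interval -0.89 to -0.04), with an adjusted p of 0.237 in edgeR and 0.134 in DESeq2. Without aged-SP replicate 1 the log2 fold change of Sparc was -0.28.

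Postn (chromosome 3, 54361109 to 54391037), a secreted protein that promotes collagen cross-linking, did not share the lower level of Fn1 and Sparc. It was at 1098 and 1329 CPM in the aged-SP libraries and at 1006, 802 and 1433 CPM in the young-SP libraries. The groups overlapped, with the highest value in young-SP replicate 4 and the lowest in young-SP replicate 2 (log2 fold change 0.17, 95% interval -0.47 to 0.81). On the FPKM scale the ratio of Postn to Fn1 was 1.41 and 1.30 in the aged-SP libraries, and 0.664, 0.444 and 0.773 in the young-SP libraries. Postn transcripts thus exceeded Fn1 transcripts per length in both aged-SP libraries and were fewer in all 3 young-SP libraries.

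The thrombospondins, which bind growth factors and restrain the growth of vessels, had overlapping groups. Thbs1 (chromosome 2, 118111876 to 118127133) was at 92.7 and 110.6 CPM in the aged-SP libraries and at 74.997, 93.9 and 147.8 CPM in the young-SP libraries, which enclosed them. Its log2 fold change was -0.05 (95% interval -0.79 to 0.69). Thbs2 (chromosome 17, 14665500 to 14694262) was at 44.5 and 51.6 CPM against 28.3, 41.5 and 51.8 CPM, and its log2 fold change was 0.25 (95% interval -0.39 to 0.88). Thbs1 exceeded Thbs2 per length in every library, by 2.03-fold and 2.09-fold in the aged-SP libraries, against 2.21-fold to 2.78-fold in the young-SP libraries.

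**Figure D3:**
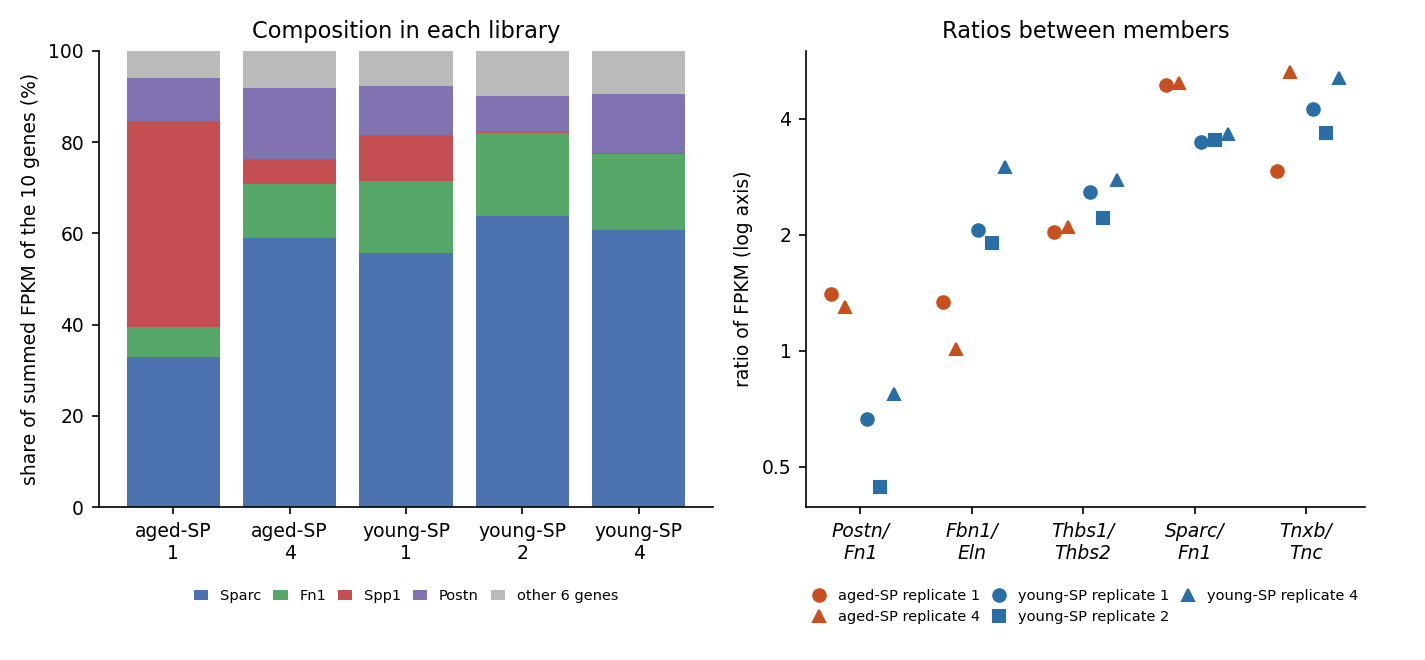
Left, share of each gene in the summed FPKM of the 10 genes in each library, in percent, with 6 less abundant genes grouped. Right, ratio of the FPKM of 2 genes in the same library, on a log axis. Spp1 took 45.1% of the sum in aged-SP replicate 1 and 0.181% in young-SP replicate 2, and the ratio of Postn to Fn1 was above 1 in both aged-SP libraries.

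Seen as a pool, the 10 genes summed to 1327 and 986 FPKM in the aged-SP libraries and 1084, 1171 and 1274 FPKM in the young-SP libraries. Spp1 took 45.1% and 5.45% of the sum in aged-SP replicates 1 and 4, and 0.181% to 10.1% in the young-SP libraries. A large Spp1 share lowers the shares of the other genes, most of all in aged-SP replicate 1. Sparc took 32.9% and 59.0% of the sum in the aged-SP libraries, against 55.6% to 63.9% in the young-SP libraries. Fn1 took 6.69% and 11.9% in the aged-SP libraries, below its 16.0% to 18.1% in the young-SP libraries. Fbn1 took 1.21% and 1.34%, below its 2.30% to 3.35%. Ratios of 2 members' counts were separate between the groups in 20 of 45 pairs, against 38.2% of all pairs of tested genes, so that the share as a whole was near the background. Of the 9 ratios that each gene enters, 7 did not overlap for Fn1 and 7 for Fbn1, and 0 for Spp1. These counts restate the levels given above for the same genes and libraries, and they are not separate evidence. The ratio of Fn1 to Fbn1 itself overlapped between the groups.

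Spp1 (chromosome 5, 104435118 to 104441050) varied more than any other of the 10 genes, and the variation did not follow the groups. It was at 998 CPM in aged-SP replicate 1, 181 CPM in young-SP replicate 1 and 88.8 CPM in aged-SP replicate 4, but at 7.68 CPM in young-SP replicate 4 and 3.43 CPM in young-SP replicate 2. In counts these were 16511, 2900, 1388, 115 and 58, so that the low values did not rest on a few reads. The highest over the lowest CPM was 291, a ratio reached by 1.08% of the tested genes, whose median was 1.54. The groups overlapped, with means of 543 ± 643 CPM (SD, n = 2) after aged and 64.2 ± 101.5 CPM (SD, n = 3) after young males. The log2 fold change of 3.08 had a standard error of 1.81 and a 95% interval from -1.43 to 7.59 (edgeR adjusted p = 0.412, DESeq2 0.425). It was 0.47 without aged-SP replicate 1 and 6.61 without young-SP replicate 1 (edgeR adjusted p = 0.952 and 0.0660). Exons of Gm42793, on the same strand, cover 18.8% of the exon bases of Spp1, and Gm42793 had between 0 and 2 counts per library. As with Gm9913, this low count does not measure the part of Gm42793 in the shared bases.

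The libraries with high Spp1 were those with high sums of the estrogen response list (Ltf, Muc1, C3, Lcn2, Clca1 and Sprr2f, made mainly by the epithelium). That list summed to 9683 and 9117 CPM in aged-SP replicates 1 and 4 and to 8391 CPM in young-SP replicate 1, against 428 and 1157 CPM in young-SP replicates 2 and 4. Its most abundant genes were Ltf (lactoferrin) and C3 (complement component 3). Sprr2f did not follow the sum, at 64.4 CPM in aged-SP replicate 1 and 92.5 CPM in young-SP replicate 4. The epithelial list (7 of 7 genes tested) summed to 1083 and 1162 CPM in the aged-SP libraries, 1410.4 CPM in young-SP replicate 1, and 747 and 905 CPM in young-SP replicates 2 and 4. The macrophage list (7 of 7 genes tested) was at 587 and 934 CPM in aged-SP replicates 1 and 4 and at 976, 474 and 684 CPM in young-SP replicates 1, 2 and 4. None of these 3 lists had the order of Spp1 over all libraries, and their part in the Spp1 values was not tested.

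**Figure D4:**
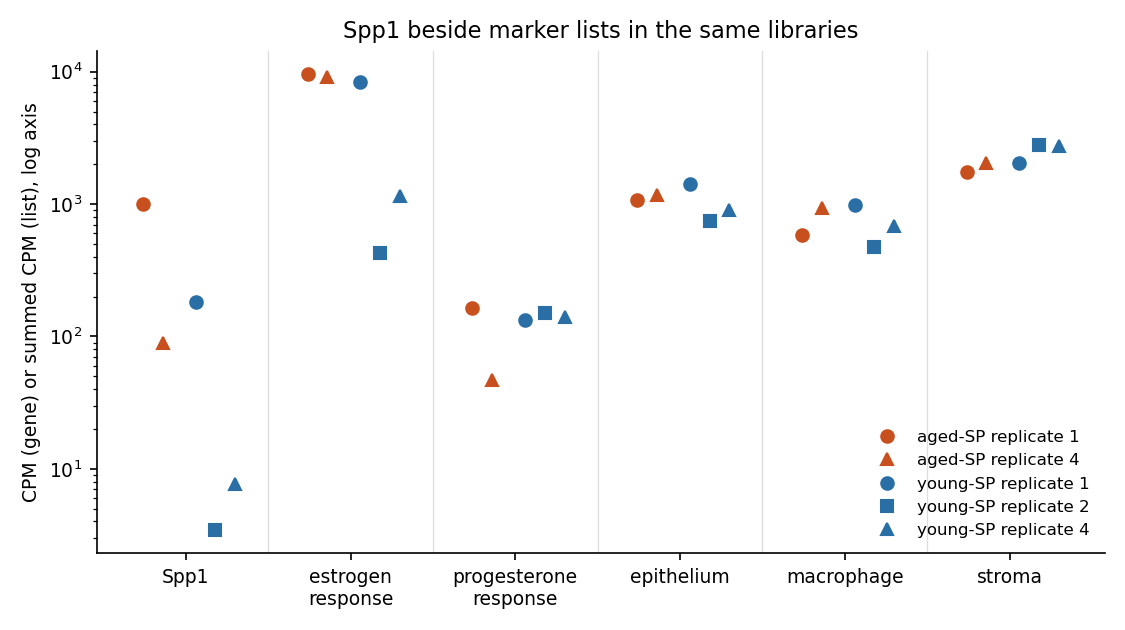
CPM of Spp1 and summed CPM of 5 marker lists on a log axis, with 1 point per library. Young-SP replicates 2 and 4 are the lowest in both Spp1 and the estrogen response list, where young-SP replicate 1 lies with or near the aged-SP libraries.

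The stroma list (Vim, Pdgfra, Pdgfrb, Hand2, Hoxa10, Hoxa11 and Thy1) was at lower sums in the aged-SP libraries, with 1 overlap. Its sum was 1748 and 2033 CPM after aged males, against 2030.2, 2812 and 2732 CPM after young males. In the fit 6 of 7 genes were below 0, against 49.1% of all tested genes. At an adjusted p under 0.05 there were 0 of 7 (edgeR), against 0.153%. At an unadjusted p under 0.05, 4 of its genes were lower and 1 was higher, Pdgfrb (log2 fold change 0.34), against 19.0% of all tested genes in either direction. Relative to this sum, a comparison chosen after the values were seen, Fn1 was at 60.0% and 67.5% in the aged-SP libraries, against 86.2% to 100.3% in the young-SP libraries. Fbn1 was at 11.3% and 7.90% against 15.03% to 16.6%. Both lay below the young-SP libraries on this scale, as did 4.35% of all tested genes, a share that depends on the sum chosen. Vim was the most abundant gene of that sum, and its CPM overlapped between the groups. Sparc was at 95.6% and 108.7% against 98.7% to 113.3%, and it overlapped between the groups on this scale, as did Tnxb. Postn (62.8% and 65.4% against 28.5% to 52.5%) and Thbs2 (2.54% in both against 1.40% to 1.90%) lay above the young-SP libraries. In all, 4 of the 10 genes did not overlap relative to the stroma sum, against 44.7% of all tested genes. Of those 7605 genes, 740 were below in aged-SP and the others above. Lying above, as Postn and Thbs2 did, was thus common among all tested genes on this scale. The proliferation list (Top2a, Mki67 and 4 others) also had lower sums, at 215 and 233 CPM after aged males and 248 to 648 CPM after young males. In the fit 6 of 6 genes were below 0, against 49.1% of all tested genes. Of the 6, 1 was lower at an unadjusted p under 0.05 (edgeR), against 9.36% of all tested genes. The progesterone response list (Ihh, Areg, Calca, Fst, Cyp26a1 and Il13ra2) had 5 genes lower and 1 higher at an unadjusted p under 0.05 (edgeR). Of all tested genes, 9.36% were lower and 9.62% higher at this p. At an adjusted p under 0.05 the list had 0, against 0.153%, and its median log2 fold change was -1.98 (edgeR). Its sum was 165 and 46.5 CPM after aged males and 132 to 149.6 CPM after young males, with 103.8 CPM of the first value from Cyp26a1 alone. Cyp26a1, the 1 higher gene, was at 2.30 CPM in aged-SP replicate 4, below its 2.36 to 3.40 CPM after young males. Areg (0.0605 and 0 CPM) and Calca (0.302 and 0.512 CPM) were near the floor in aged-SP replicates 1 and 4. Without Cyp26a1, left out after its values were seen, the other 5 genes summed to 61.2 and 44.2 CPM against 129.5 to 147.2 CPM. The part of the stroma, proliferation and progesterone response lists in the lower Fn1, Fbn1 and Sparc levels was not tested. The myometrium list (Acta2, Myh11 and 5 others) was at 9046 and 11455 CPM in the aged-SP libraries, against 9422 to 14235 CPM in the young-SP libraries.

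The RefSeq promoter table (GRCm38.p6) held windows for 7 of the 10 genes, from 250 bases before to 50 bases after a transcription start, and Fn1, Thbs1 and Eln are named here without one. Postn and Spp1 had 2 windows each in the table, and the one nearest the gene's start in the count table was taken. The windows of 4 genes are shown because their levels set the contrast described above: Fbn1 and Sparc, which were lower in both aged-SP libraries, Postn, which was not, and Spp1, which varied most. Capitals mark matches, on either strand, to the letters searched, a set chosen after the values were seen. These were TATAAA for the TATA box, CCAAT for the box of that name, and GGGCGG for the GC box. The AP-1 element was searched as TGANTCA and the cyclic AMP response element as TGACGTCA, and no motif overlapped another in these windows.
Fbn1 (chr2:125506389-125506688, minus strand): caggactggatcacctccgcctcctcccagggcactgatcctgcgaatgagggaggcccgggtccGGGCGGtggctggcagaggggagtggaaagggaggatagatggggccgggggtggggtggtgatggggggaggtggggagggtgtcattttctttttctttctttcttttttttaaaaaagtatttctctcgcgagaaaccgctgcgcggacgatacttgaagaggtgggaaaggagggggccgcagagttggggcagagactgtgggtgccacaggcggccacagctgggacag
Sparc (chr11:55420031-55420330, minus strand): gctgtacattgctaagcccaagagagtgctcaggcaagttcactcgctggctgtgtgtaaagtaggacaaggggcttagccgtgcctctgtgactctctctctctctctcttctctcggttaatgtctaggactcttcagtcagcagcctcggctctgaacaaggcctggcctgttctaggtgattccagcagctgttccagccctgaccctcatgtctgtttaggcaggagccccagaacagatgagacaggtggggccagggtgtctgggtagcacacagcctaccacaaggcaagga
Postn (chr3:54360857-54361156, plus strand): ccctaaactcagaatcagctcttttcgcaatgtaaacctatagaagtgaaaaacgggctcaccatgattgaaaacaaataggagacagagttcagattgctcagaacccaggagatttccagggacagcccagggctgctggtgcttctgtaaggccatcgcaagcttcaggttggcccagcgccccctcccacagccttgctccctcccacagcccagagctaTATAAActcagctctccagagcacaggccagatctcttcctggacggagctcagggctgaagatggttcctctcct
Spp1 (chr5:104434861-104435160, plus strand): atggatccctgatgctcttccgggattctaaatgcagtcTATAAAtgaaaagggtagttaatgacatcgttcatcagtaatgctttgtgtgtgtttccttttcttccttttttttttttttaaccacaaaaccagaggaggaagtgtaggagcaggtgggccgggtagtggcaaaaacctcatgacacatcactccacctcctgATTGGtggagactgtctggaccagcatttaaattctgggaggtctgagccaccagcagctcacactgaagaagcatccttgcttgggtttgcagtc
The Postn window held TATAAA from position -26, counted from the transcription start. The Spp1 window held TATAAA from position -211 and a CCAAT box, on the minus strand, from position -46. The Fbn1 window held a GC box from position -185, and the Sparc window held none of these letters. The Fbn1 and Sparc starts lie 1555 and 3103 bases inside the gene bounds of the count table. Of all 32851 windows of this length, 13.6% held the TATA box letters, 37.4% the CCAAT box, 35.7% the GC box, 7.81% the AP-1 element and 1.79% the cyclic AMP response element. A match is a description of letters and not a bound site.

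Other genes of the same structures were read from lists of elastic fiber assembly, matricellular families, further matrix glycoproteins and receptors. By edgeR's test 0 of the tested genes of the 4 lists were called, against 0.147% of all tested genes. In the elastic fiber assembly list (15 of 15 genes tested), 2 genes were higher and 5 lower at an unadjusted p under 0.05, against 9.62% of all tested genes higher and 9.36% lower at this p, and the median log2 fold change was -0.31. Its smallest p belonged to Lox, a cross-linking enzyme of elastin and collagen, at 161.5 and 145.7 CPM in the aged-SP libraries, against 102 to 118 CPM in the young-SP libraries (log2 fold change 0.50, edgeR adjusted p = 0.107). Loxl1, a related enzyme that acts on elastin, had the lower level in the aged-SP libraries, at 76.2 and 98.8 CPM against 122 to 138 CPM (log2 fold change -0.54, adjusted p = 0.145 in edgeR). Fbln1 (fibulin 1), a component of elastic fibers, was at 707 and 407 CPM against 158 to 323 CPM (log2 fold change 1.26, edgeR adjusted p = 0.166). DESeq2 called Fbln1, the 1 gene of the 4 lists that it called at both thresholds (adjusted p = 0.00996), against 3.60% of all genes. At DESeq2's adjusted p under 0.05 alone, 2 genes of this list were higher and 2 lower, against 7.58% of all genes in either direction. In the same way 0 were higher and 2 lower in the matricellular families, with Thbs3 at 7.41e-07. There were 1 and 3 among the further glycoproteins, and 2 and 0 among the receptors. Efemp2 (fibulin 4), needed for elastic fiber assembly, had a log2 fold change of -0.38 and did not overlap between the groups. Fbn2, the paralog of Fbn1 and named after its values were seen, was at 40.6 and 35.05 CPM against 48.0 to 83.9 CPM (log2 fold change -0.83, adjusted p = 0.177 in edgeR).

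In the list of matricellular families (14 of 18 genes tested), 2 genes were higher and 2 lower at an unadjusted p under 0.05, with a median log2 fold change of 0.08. Those counts stand beside the same 9.62% and 9.36% of all tested genes, which they were near. Thbs3, a thrombospondin, had the smallest edgeR adjusted p of the 4 lists (0.0674), at 57.7 and 54.2 CPM in the aged-SP libraries, against 88.4 to 91.7 CPM in the young-SP libraries. Its log2 fold change was -0.69, and its difference from Thbs1 and Thbs2 was not tested. Fstl1, of the SPARC family, was at 318 and 395 CPM against 464 to 687 CPM (log2 fold change -0.75). Comp (1.69 and 3.07 CPM against 0.532 to 1.13 CPM, log2 fold change 1.56) and Tgfbi (193 and 187 CPM against 134.8 to 168 CPM, log2 fold change 0.35) were higher in both aged-SP libraries. Spock1, Spock3, Tnr and Wisp2 had too few counts.

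Among the further glycoproteins (18 of 22 genes tested), 2 were higher and 5 lower at an unadjusted p under 0.05 (9.62% and 9.36% of all tested genes), and the median log2 fold change was 0.05. Nid1 (nidogen 1), which links laminin and collagen in the basement membrane, was at 407 and 373 CPM in the aged-SP libraries, against 600.4 to 799 CPM in the young-SP libraries (log2 fold change -0.89, edgeR adjusted p = 0.0829). Egflam (pikachurin) at -0.94 and Svep1 at -0.57 on the log2 scale were also lower in both aged-SP libraries. Mfge8, a secreted protein that binds integrins and dying cells, was higher, at 301 and 217 CPM against 126 to 142 CPM (log2 fold change 0.96, edgeR adjusted p = 0.0767). Ibsp, Dmp1, Mepe and Dspp, which belong to the same phosphoprotein family as Spp1, were not tested.

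The receptors (15 of 15 genes tested) had a median log2 fold change of 0.36, with 4 genes higher and 0 lower at an unadjusted p under 0.05, against 9.62% of all tested genes higher at this p. The 4 were integrin chains, as were 10 of the 15 listed receptors. Of these 10, 8 were fitted above 0 and 2 below (Itga4 at -0.33 and Itgb1 at -0.07 on the log2 scale). Among all tested genes, 50.9% were fitted above 0. Itga8 was at 51.9 and 50.8 CPM in the aged-SP libraries, against 27.8 to 35.5 CPM in the young-SP libraries (log2 fold change 0.75, edgeR adjusted p = 0.0872). Itgb5 was at 200.2 and 209 CPM against 75.3 to 126 CPM (log2 fold change 0.96, edgeR adjusted p = 0.120). Itga9 and Itgav had log2 fold changes of 0.44 and 0.65 and adjusted p of 0.150 and 0.239 in edgeR.

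**Figure D5:**
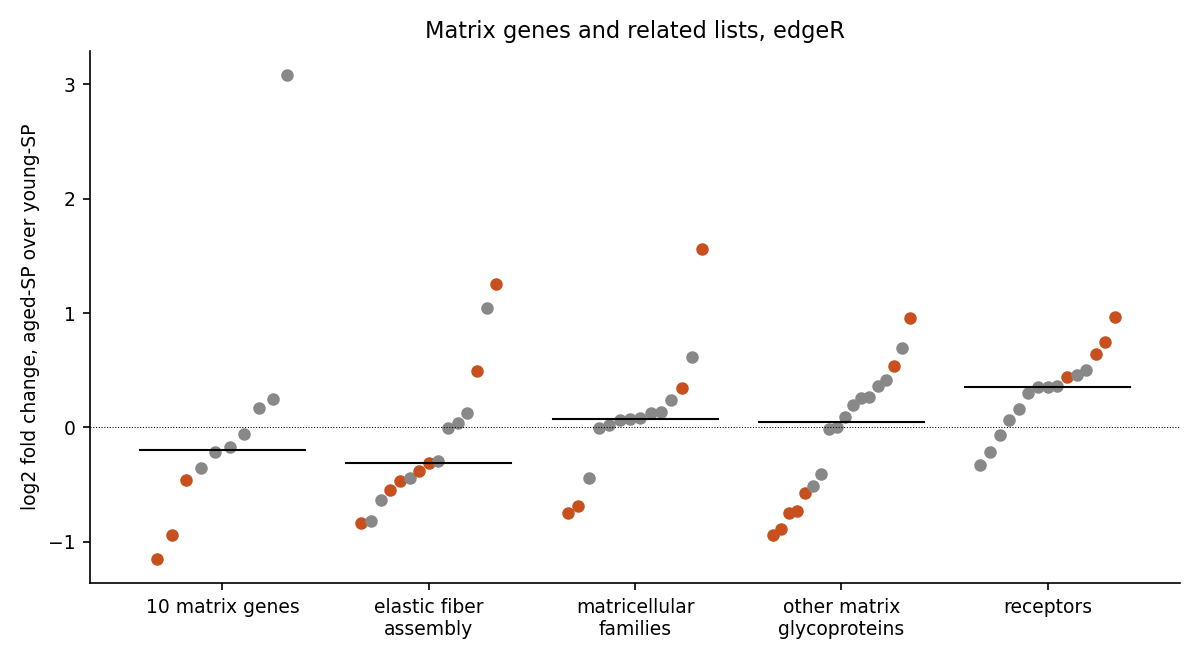
Log2 fold change of each tested gene of the 10 matrix genes and the 4 related lists from edgeR, sorted within a list (orange, unadjusted p under 0.05; grey, others; line, median). The median is -0.31 for elastic fiber assembly and 0.36 for the receptors, and that of all tested genes is 0.0072.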

How the data were processed

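Uterine RNA of 2 aged-SP and 3 young-SP libraries was compared, grouped by the sample titles. Per the labels, libraries were made with a NEBNext Ultra RNA kit. Reads were filtered by the authors before alignment with HISAT2 2.1.0, and raw counts per gene were deposited. The submitters' processing notes also list HTSeq 0.6.0 and Bowtie2 2.2.3, without roles. The genome build is not given in the sources used here, and 26998 of 28666 gene positions equal those of GENCODE M21 (GRCm38). The FPKM values deposited by the authors equal counts per gene length and library total. The authors' own DESeq2 columns (fold changes and p-values) were not used, and 0 columns of values per sample were left unused.

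Counts were filtered with filterByExpr, scaled by TMM and tested with glmQLFTest in edgeR 4.0.16 (R 4.3.3), two-sided, with Benjamini-Hochberg adjustment over 17013 genes. CPM values use the TMM-scaled library size. Standard errors are the log2 fold change over the root of the F statistic. DESeq2 1.42.0 and limma 3.58.1 (voom) were alternatives, with other scalings and filters, a replicate block and each library left out. Ratios of 2 members' counts had 0.5 added. The tests were also run on simulated counts. The changes planted there were larger than those of the 10 genes apart from Spp1, so that run does not give the power at such sizes. Exon overlaps and shared stretches of 50 bases were computed from GENCODE M21. Named genes were the 10 members and, from each related list, the 4 tested genes with the smallest p. The members and lists were chosen with earlier results of these data known. Intervals cover the spread between libraries, and the reads carry no molecular identifiers in these files.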

Additional observations from a re-analysis of the deposited data

How the results depend on the processing

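Fn1, Fbn1, Sparc and Tnxb were below 0, and Spp1 and Thbs2 above 0, under all 12 alternatives. The range of the log2 fold change was -1.14 to -0.76 for Fn1 and -1.32 to -1.01 for Fbn1, with adjusted p from 2.29e-05 to 0.271 and from 5.14e-05 to 0.271. Calls depended on the tool and the library. Over all genes, 25 calls became 632 with DESeq2, 203 without a filter, 2 with the replicate block, and 1 (without aged-SP replicate 1) to 578 (without young-SP replicate 1) with a library left out. The others gave 49 (aged-SP replicate 4 left out), 3 (young-SP replicate 2) and 2 (young-SP replicate 4). Of the 10 genes, 0 calls became 1 with DESeq2, 1 without a filter and 0 to 2 with a library left out. The count at an adjusted p under 0.05 went from 0 to 2 (Fn1 and Fbn1) with DESeq2, 2 without a filter and 0 to 2 with a library left out. In the 4 related lists (15, 14, 18 and 15 genes tested), 0 calls became 1 with DESeq2, against 3.60% of all genes. Without young-SP replicate 1 there were 4 (Ltbp2, Nid1, Fbn2 and Egflam), against 3.45% of all genes tested in that fit. Leaving out young-SP replicate 2 or 4 gave 0, against 0.0180% and 0.0119%. The sign of the log2 fold change turned for Tnc when aged-SP replicate 4 was left out (0.14), Postn for young-SP replicate 2 (-0.0093), Thbs1 for aged-SP replicate 1 (0.066) or young-SP replicate 4 (0.26), and Eln for young-SP replicate 2 (0.084) and with the replicate block (0.086). With a library left out, the ranges were -0.57 to 0.14 (Tnc), -0.0093 to 0.42 (Postn), -0.26 to 0.26 (Thbs1) and -0.37 to 0.084 (Eln). The cause was not tested. Replicate numbers 1 and 4 occur in both groups, but nothing says that they mark a pair. Deviations from the group means correlated at 0.15 (number 1) and 0.14 (number 4) across genes. With 2 aged-SP libraries, the deviation of one is the exact opposite of the other's, so these values cannot decide whether the numbers mark pairs. With the replicate block 5 of the 10 genes had an unadjusted p under 0.05 (edgeR) in place of 3. The shares of all tested genes were 14.8% in that fit and 19.0% without the block. The block leaves young-SP replicate 2, the only library of its number, out of the difference between the groups. Where 1 aged-SP library was left, it was taken to vary like the young-SP libraries. Ordered by CPM in place of FPKM, 2 of the 10 genes kept their place.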

Other observations

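The remaining marker lists are given as summed CPM, first in the aged-SP libraries and then in the young-SP libraries. The endothelium list was at 582 to 588 and 445 to 754 CPM, and the leukocyte list at 377 to 382 and 349 to 486 CPM. The vagina and cervix list was at 2.17 to 4.96 CPM in all libraries, the adipose list at 3.20 to 10.1 CPM, and the ovary and oviduct list, led by Ovgp1 and Foxl2, at 74.3 to 278 CPM.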
